A study of Danio rerio with 6 samples.

Results

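Blood and vessel progenitors of the zebrafish (Danio rerio) were followed through 10 genes: tal1, lmo2, gata1a, gata2a, drl, spi1b, kdrl, npas4l, gfi1aa and alas2. They were chosen by symbol from a table of 32057 genes, and each symbol matched 1 entry. The embryos were wild type (WT) or Pea3 triple mutant, a genotype the labels call 3etv, with 3 single whole embryos of each genotype, all at the 10-somite stage. The labels name no treatment, do not say which Pea3 genes are mutated, and give no clutch and no parental line, and these cannot be told apart from genotype. Pea3 factors are ETS transcription factors that act downstream of fibroblast growth factor signalling.

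Red cells, white cells and vessel cells arise from paired stripes of lateral plate mesoderm. In zebrafish the anterior stripes give mainly myeloid cells, the posterior stripes give mainly red cells, and both give endothelium. The transcription factor Npas4l, known from the cloche mutant, lies at the top of this programme and is needed for both blood and endothelium. It acts ahead of Etv2, which drives the endothelial fate, and of Tal1, a basic helix-loop-helix factor that works with the bridging protein Lmo2 and with Gata factors. Gata1a then drives red cell fate and Spi1b myeloid fate, and the 2 factors are known to restrain each other.

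Of the 10 genes, 3 differed between the genotypes at an adjusted p under 0.05 in edgeR's quasi-likelihood test, with p-values adjusted over 18533 tested genes. In the same test 31.3% of all genes differed, 15.9% higher and 15.4% lower in 3etv, so the share among the 10 (30%) was near that of all genes. The erythroid factor gata1a was lower in 3etv, and the early progenitor genes npas4l and lmo2 were higher. The myeloid factor spi1b and the endothelial receptor kdrl did not pass the test. All 10 genes passed the filter on low counts, their log2 fold changes (log2FC, 3etv over WT) ran from -0.59 to 0.64, and their median was 0.06, beside 0.0035 over all tested genes. In 4 of the 10 the values of the WT embryos and 3etv embryos did not overlap, which held for 45.1% of all tested genes. In whole embryos, fewer cells of a type and less RNA per cell cannot be told apart.

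**Figure D1:**
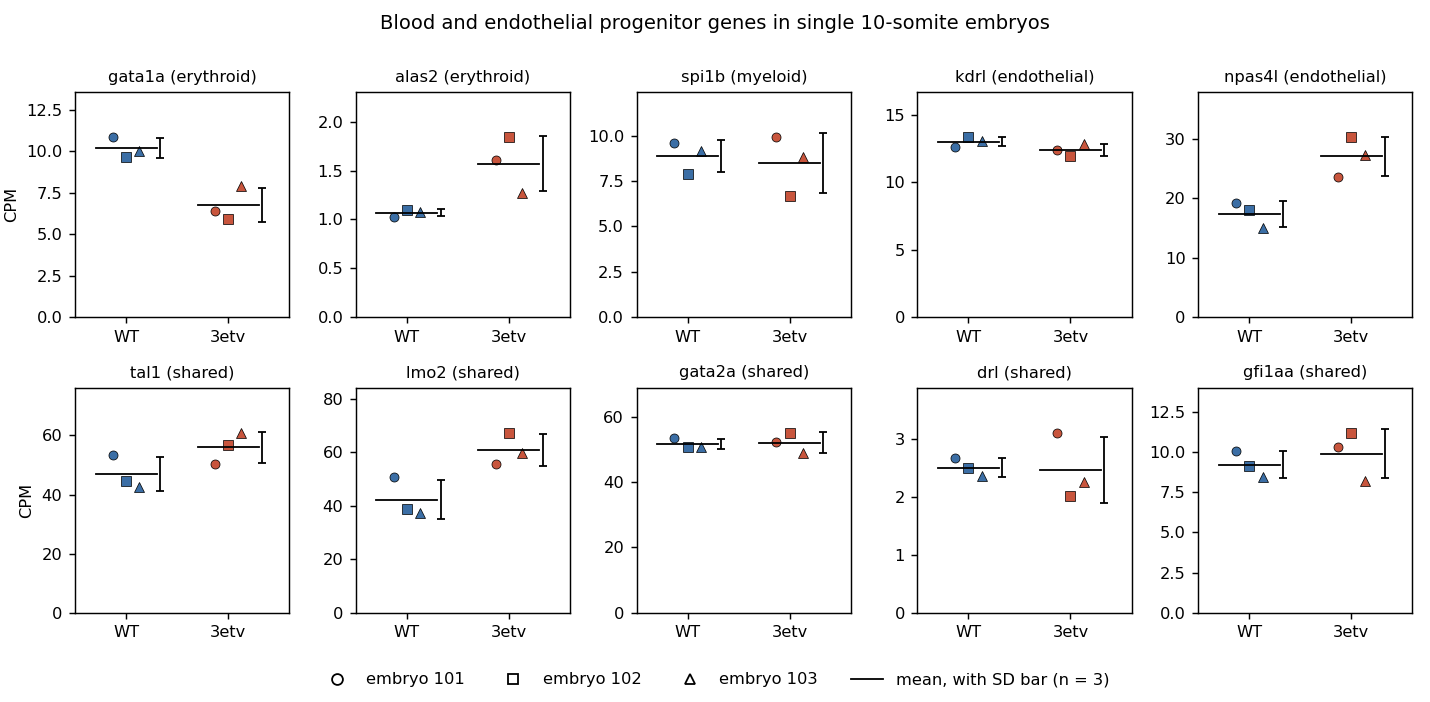
Level of each of the 10 genes in single embryos, in CPM (counts scaled to library size with TMM), with WT in blue and 3etv in red. Marker shapes give the number in the sample title, lines the group means and bars the SD of 3 embryos. The 3 values of gata1a lie lower in 3etv than in WT, those of npas4l, lmo2 and alas2 lie higher, and those of gata2a, spi1b and drl overlap.

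The WT embryos are called WLD101, WLD102 and WLD103 and the 3etv embryos MUT101, MUT102 and MUT103, as in their sample titles, and values are given in that order. The labels do not say whether the same number in both genotypes marks a pair, and the main test treated the embryos as unpaired. Gene counts totalled between 22446699 and 28841169 in WT and between 18484238 and 21865288 in 3etv, lower in each 3etv library. After each library was thinned to the smallest total, the same number of the 10 genes (3) differed. As a check of the genotype labels, 3 of 4 Pea3 family genes passed the test as lower in 3etv: etv5b from a mean of 198.5 to 61.5 CPM, etv5a from 76.8 to 26.8 CPM and etv1 from 1.42 to 0.561 CPM. For etv1, MUT103 held 8 counts, so only WT met the low-count filter in every embryo. The fourth, etv4, had means of 87.4 and 61.0 CPM and did not pass (edgeR adjusted p 0.057). Its groups were separate, with 86.3, 89.8 and 86.0 CPM in WT and 77.7, 45.9 and 59.3 in 3etv. Markers of many other tissues were present, as whole embryos require, and several moved with genotype. Over 8 such lists, 12 of 41 tested markers were higher in 3etv and 13 lower, beside 15.9% and 15.4% of all genes. Of 7 somite and tailbud markers, 6 fell, and their summed level was between 638 and 696 CPM in WT and between 392 and 538 in 3etv. All 3 tested of 4 endoderm markers rose (sums from 22.9 to 26.2 CPM in WT and from 44.5 to 62.3 in 3etv), as did 4 of 4 germ cell markers (5.67 to 7.90 CPM against 23.6 to 25.6). For the endoderm marker sox17, WLD102 held 10 counts, so only 3etv met the low-count filter in every embryo. Of the neural crest markers 3 of 5 fell (sums from 438 to 461 against 324 to 404 CPM) and of the notochord and floor plate markers 3 of 5 rose (588 to 610 against 643 to 712 CPM). Of the pronephros markers 1 of 6 rose and of the neural markers 2 of 6 fell. The 5 markers of periderm and epidermis went both ways, with 1 higher and 2 lower. The part of these shifts in the results on blood and vessel genes was not tested.

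The erythroid genes were examined first. gata1a (ENSDARG00000013477), the transcription factor that commits progenitors to the red cell fate, had 10.8, 9.68 and 10.0 CPM in WT and 6.42, 5.93 and 7.90 CPM in 3etv. The groups were separate, and the highest 3etv embryo lay below the lowest WT embryo. The mean fell from 10.2 ± 0.595 to 6.75 ± 1.02 CPM (SD, n = 3), a log2FC of -0.59 (SE 0.14, edgeR adjusted p 0.0048). In all 15 alternative analyses gata1a stayed lower and past the threshold, with log2FC values from -0.72 to -0.51. alas2 (ENSDARG00000038643) encodes the enzyme of red cells that makes the first and rate-limiting step of heme synthesis. It moved the other way, with 1.03, 1.09 and 1.08 CPM in WT and 1.61, 1.84 and 1.27 in 3etv. All 3 mutant embryos lay above all 3 WT embryos, but these values rest on 23 to 40 counts per library, and the log2FC of 0.56 (SE 0.27) did not pass (edgeR adjusted p 0.13). Within single embryos the ratio of alas2 to gata1a counts was 0.0965, 0.115 and 0.109 in WT and 0.253, 0.313 and 0.164 in 3etv. This ratio, which does not depend on library scaling, was higher in each 3etv embryo than in each WT embryo.

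Embryonic globins, the oxygen carriers of the first red cells, were at low levels at this stage. The 10 globin entries of the erythroid list together held 272, 459 and 430 counts in WT and 139, 87 and 112 counts in 3etv. In CPM the sum was 12.1, 15.7 and 17.2 in WT and 7.44, 4.001 and 6.19 in 3etv, whose mean was 39.2% of that in WT. The groups were separate. Both kinds of chain were lower, with the alpha entries at 50.8% and the beta entries at 32.99% of their WT mean. Globin genes are near copies of each other, so reads may be split between entries, which makes single entries uncertain and touches the sum less. Reads that match several copies may be left out of every entry, and so of the sum. For these sums no test was made.

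Single globin entries differed from each other. hbbe3 (ENSDARG00000038147) had 3.48, 5.82 and 5.79 CPM in WT and 1.39, 0.41 and 1.49 CPM in 3etv, a log2FC of -2.23 (SE 0.36, edgeR adjusted p 9.62e-04). With 9 counts of hbbe3, MUT102 alone fell below the cutoff of the low-count filter, which only WT met in every embryo. hbae3 (ENSDARG00000079305) fell from 3.54 ± 0.449 to 1.88 ± 0.508 CPM (log2FC -0.92, SE 0.23, adjusted p 0.0080). hbbe1.1 (ENSDARG00000113599) had 1.78, 2.33 and 2.55 CPM in WT and 1.66, 0.60 and 1.33 in 3etv, separate by a small margin (log2FC -0.92, SE 0.32, edgeR adjusted p 0.046). Its call was lost in 7 alternatives, with adjusted p-values up to 0.17; among these were DESeq2 (0.058), the replicate block (0.071) and the fits without WLD102, WLD103, MUT102 or MUT103. hbbe1.2, named after its values were seen, had 34, 35 and 32 counts in WT and 0, 1 and 1 in 3etv. It was at least 8.60-fold lower, computed against 3 counts per library, and since it passed the filter through WT alone, no test is given for it. Its sister entry hbbe1.3 had 22, 29 and 23 counts in WT and 19, 16 and 17 in 3etv, at overlapping CPM values. hbae1.1 (ENSDARG00000089475) had 7, 15 and 20 counts against 13, 11 and 4, which also overlap in CPM (adjusted p 0.79).

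**Figure D2:**
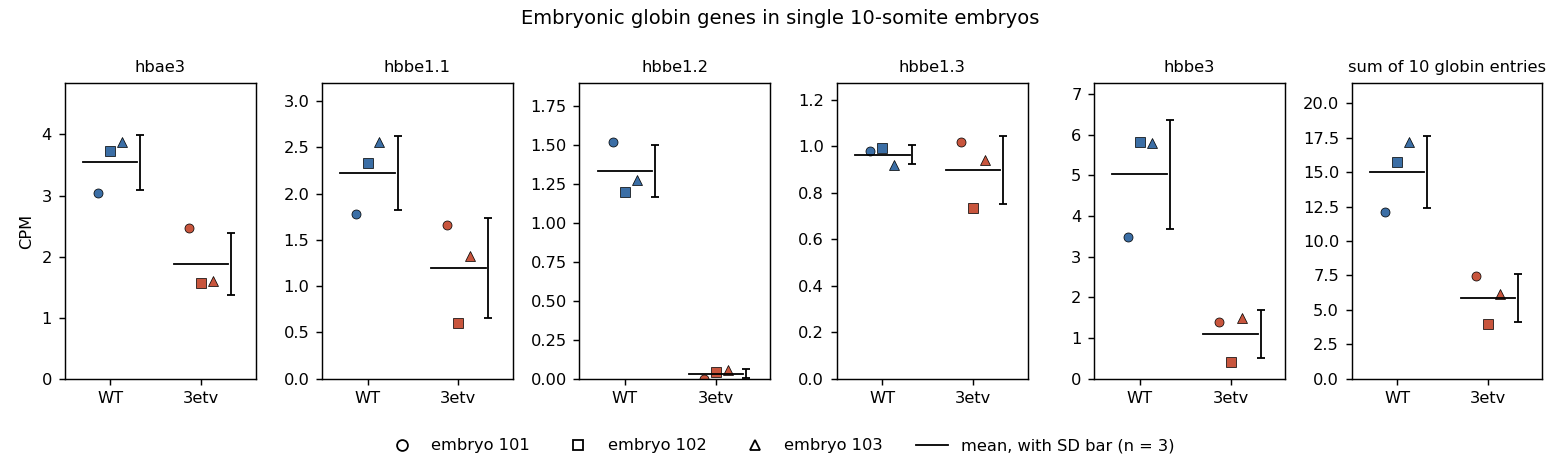
Embryonic globin genes in CPM in each embryo, WT in blue and 3etv in red, with the group mean as a line and the SD of 3 embryos as a bar. The last panel sums 10 globin entries, from 12.1 to 17.2 CPM in WT and from 4.001 to 7.44 CPM in 3etv, and hbbe1.3 is the entry shown whose groups overlap.

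The erythroid list held 26 entries for 24 of 25 symbols, of which 19 were tested. In 3etv 5 were lower, namely gata1a and 4 globins (hbbe1.2, which only WT let past the filter, among them), and 1 was higher. These 6 are 31.6% of those tested, beside 31.3% of all genes. As globin entries may share reads, the 4 globin calls may not be independent of each other. The median log2FC was -0.36. The gene that rose was tspo (ENSDARG00000026655), a protein of the outer mitochondrial membrane that many tissues express, from 10.4 ± 0.662 to 13.7 ± 1.53 CPM (log2FC 0.40, edgeR adjusted p 0.017). Its call was lost with the replicate block (adjusted p 0.053) and without WLD102 or MUT102 (0.076 and 0.096). The transcription factor klf17, the entry with the highest level on the list, had overlapping groups. It had 50.7, 47.1 and 49.4 CPM in WT and 47.6, 64.4 and 52.1 in 3etv (log2FC 0.16, edgeR adjusted p 0.24). epor and nfe2 did not pass either (log2FC 0.38 and -0.05, edgeR adjusted p 0.54 and 0.93). Genes of the red cell membrane did not pass, such as slc4a1a, the anion exchanger, with 26, 40 and 17 counts in WT and 13, 18 and 16 in 3etv, and sptb, a spectrin, with 1.74, 2.19 and 2.99 CPM against 1.87, 1.33 and 1.16. The ankyrin gene ank1a went the other way, with 2.41, 2.09 and 2.24 CPM in WT and 3.64, 2.85 and 2.54 in 3etv, groups that were separate but did not pass (log2FC 0.43, edgeR adjusted p 0.14).

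Genes of heme synthesis and iron uptake, processes that all cells need and red cells need most, were read next. This list includes alas2, which is also on the erythroid list. Of 17 tested genes 1 rose and 1 fell (11.8%, beside 31.3% of all genes), and the median log2FC was 0.0092. abcb10 (ENSDARG00000061591), a mitochondrial transporter that takes part in heme formation in red cells, rose from 8.58 ± 1.32 to 13.2 ± 0.267 CPM (log2FC 0.63, SE 0.12, edgeR adjusted p 0.0020). hmbsb (ENSDARG00000055991), a hydroxymethylbilane synthase, fell from 11.8 ± 0.806 to 8.60 ± 1.251 CPM (log2FC -0.46, adjusted p 0.015). The related hmbsa, with means of 25.9 CPM in WT and 22.8 in 3etv, did not pass (log2FC -0.19, adjusted p 0.22). For hmbsb the call was lost without WLD102, MUT101 or MUT102 (adjusted p from 0.058 to 0.061).

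The myeloid member was next. spi1b (ENSDARG00000000767), also called Pu.1, is the ETS factor that directs progenitors to myeloid fates. It had 9.59, 7.87 and 9.18 CPM in WT and 9.90, 6.67 and 8.84 in 3etv. The groups overlapped, with MUT102 below and MUT101 above every WT embryo, and the log2FC of -0.07 (SE 0.15) did not pass (edgeR adjusted p 0.76). The ratio of gata1a to spi1b counts was 1.13, 1.23 and 1.09 in WT and 0.650, 0.890 and 0.894 in 3etv, so the erythroid factor was lower relative to the myeloid one in each mutant embryo.

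Of the myeloid list of 21 genes, 10 were tested and 11 fell under the filter. In 3etv 5 were higher and 0 lower, where 15.9% of all genes were higher, and the median log2FC was 0.31. One of the 5, ptprc, passed the filter through 3etv alone, and leaving it out gives 4 of 9. lcp1 (ENSDARG00000023188), an actin-bundling protein of leukocytes, had 24.0, 22.0 and 26.9 CPM in WT and 60.7, 62.6 and 57.2 in 3etv. Every mutant embryo was far above every WT embryo, and the log2FC was 1.31 (SE 0.085, edgeR adjusted p 2.35e-07). It held in all 15 alternatives, with log2FC values from 1.24 to 1.39. cebpa (ENSDARG00000036074), a transcription factor of myeloid cells and other tissues, rose from 20.3 ± 2.58 to 25.8 ± 2.08 CPM (log2FC 0.35, adjusted p 0.021).

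Subunits of the phagocyte NADPH oxidase were also read. Its membrane subunit cyba (ENSDARG00000018283) went from 2.45 ± 0.151 to 3.75 ± 0.185 CPM (log2FC 0.62, edgeR adjusted p 0.021). The other membrane subunit, cybb (ENSDARG00000056615), went from 1.83 ± 0.341 to 2.88 ± 0.095 CPM (log2FC 0.66, adjusted p 0.036). The cytosolic subunit ncf1 had 14, 28 and 10 counts in WT and 14, 10 and 13 in 3etv and did not pass (log2FC -0.07, adjusted p 0.91). The myeloid transcription factor irf8 did not pass either, with 13, 25 and 11 counts against 6, 7 and 13 (log2FC -0.49, adjusted p 0.43). The pan-leukocyte phosphatase ptprc, named after its values were seen, had 2, 5 and 3 counts in WT and 9, 12 and 10 in 3etv. Markers of mature myeloid cells were near 0: mpeg1.1 had 0 counts in every library (3 counts, the limit that 0 allows, are 0.103 to 0.166 CPM), mpx between 0 and 2, lyz between 0 and 2, marco and itgb2 between 0 and 1. For cebpa the call was lost with the replicate block (adjusted p 0.059) and without WLD102, WLD103, MUT102 or MUT103 (0.053 to 0.11). For cyba it was lost without WLD102, MUT101 or MUT103 (0.053 to 0.079). For cybb it was lost with DESeq2 (0.077), with the replicate block (0.064) and without WLD102, WLD103, MUT101, MUT102 or MUT103 (0.066 to 0.14). The list count then ranged from 2 of 13 tested without WLD102 to 7 of 13 without WLD101. It was 3 of 10 with the replicate block or without MUT102. Without MUT101 it was 3 of 11, without WLD103 3 of 12 and without MUT103 3 of 13. Over all genes 4385 of 18976 passed without WLD102 and 5721 of 18984 without WLD101, beside 5801 of 18533 in the main fit.

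Among the members placed on the endothelial list, the early regulator and the receptor parted. The early regulator, npas4l, is needed for blood as well, so it is not particular to endothelium. npas4l (ENSDARG00000116511) had 19.2, 18.1 and 14.9 CPM in WT and 23.6, 30.3 and 27.3 in 3etv. The groups were separate, and the mean rose from 17.4 ± 2.20 to 27.1 ± 3.33 CPM (SD, n = 3), a log2FC of 0.64 (SE 0.12, edgeR adjusted p 0.0011). It stayed past the threshold in all 15 alternatives, between 0.54 and 0.73. kdrl (ENSDARG00000105215), a receptor for vascular endothelial growth factor on angioblasts and vessels, had 12.6, 13.3 and 13.05 CPM in WT and 12.4, 11.9 and 12.8 in 3etv. Its groups overlapped, and its coefficients of variation, 2.66% in WT and 3.67% in 3etv, were the lowest of the 10 genes in each genotype. The log2FC was -0.07 (SE 0.10, adjusted p 0.61). The ratio of npas4l to kdrl counts within embryos was 1.52, 1.36 and 1.14 in WT and 1.91, 2.54 and 2.13 in 3etv, with no overlap.

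Of the 31 genes of the endothelial list 27 were tested, 7 were higher and 5 lower in 3etv, and the median log2FC was 0.08. These 12 are 44.4% of those tested, beside 31.3% of all genes. Those higher were npas4l, etv2, kdr, yrk, sox7, egfl7 and plvapb. Those lower were tek, aplnra, cdh5, stab2 and esama. Of these, sox7, egfl7, plvapb, stab2 and esama fell outside the naming rule and were named after their values were seen. The list thus moved in both directions. Without MUT102 the count of 12 fell to 6 of 28 tested. Calls over all genes fell as well in that fit, from 5801 of 18533 to 4247 of 19084.

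Of the genes that rose, etv2 (ENSDARG00000053868), the ETS factor that specifies endothelium, had 29.1, 26.1 and 27.4 CPM in WT and 32.3, 35.6 and 32.99 in 3etv. The groups were separate by a small margin (log2FC 0.29, SE 0.081, edgeR adjusted p 0.015), and the call was lost with the replicate block (0.055) and without WLD102 or MUT102 (0.085 and 0.076). kdr (ENSDARG00000017321), a second receptor related to kdrl, had 2.68, 2.29 and 2.08 CPM in WT and 5.35, 6.94 and 7.02 in 3etv. This was a log2FC of 1.46 (SE 0.18, adjusted p 7.03e-05), beside overlapping groups for kdrl. yrk (ENSDARG00000004378), a kinase of the Src family, rose from 9.53 ± 0.297 to 15.03 ± 1.17 CPM (log2FC 0.66, adjusted p 4.90e-04). sox7, a Sox factor of early vessels, rose by a log2FC of 0.51 (adjusted p 0.011, and 0.060 without MUT102), plvapb, a protein of the diaphragms of fenestrated endothelium, by 1.06 (0.0089) and egfl7, a protein secreted by endothelium, by 0.39 (0.047). The egfl7 call was lost in 10 of 15 alternatives, up to an adjusted p of 0.13, among them DESeq2 (0.10), no low-count filter (0.080), thinning (0.051), the replicate block (0.10) and each fit without 1 embryo other than MUT103.

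Of the genes that fell, tek (ENSDARG00000028663), the angiopoietin receptor Tie2, had 5.08, 5.82 and 5.75 CPM in WT and 3.11, 2.81 and 2.27 in 3etv. Each mutant embryo was well below each WT embryo (log2FC -1.02, SE 0.18, edgeR adjusted p 7.57e-04). cdh5 (ENSDARG00000075549), the vascular endothelial cadherin, fell from 3.89 ± 0.532 to 2.51 ± 0.274 CPM (log2FC -0.63, adjusted p 0.026). Its call was lost with thinning (0.052), with the replicate block (0.061) and without WLD101, WLD102, MUT101 or MUT102 (0.054 to 0.084). aplnra (ENSDARG00000002172), an apelin receptor, fell from 52.1 ± 4.46 to 39.0 ± 1.32 CPM (log2FC -0.41, adjusted p 0.0015). The related aplnrb, with means of 36.9 CPM in WT and 37.2 in 3etv, did not pass (log2FC 0.01, adjusted p 0.92). stab2, a scavenger receptor, fell by 0.48 on the log2 scale (adjusted p 0.016, and 0.076 without MUT102), and esama, an adhesion molecule of endothelial junctions, by 0.98 (0.035). The groups of esama overlapped, with MUT103 at 1.38 CPM above WLD101 at 1.34. The esama call was lost in 8 alternatives, up to an adjusted p of 0.14, among them DESeq2 (0.054), thinning (0.067), the replicate block (0.054) and the fits without WLD102, WLD103, MUT101 or MUT102. The ETS factor fli1a (ENSDARG00000054632) had 22.7, 21.3 and 21.5 CPM in WT and 19.9, 20.1 and 19.7 in 3etv, which did not overlap, but its log2FC of -0.13 (SE 0.084) did not pass (adjusted p 0.25). The tyrosine kinase receptor tie1 did not pass either, with 3.35, 3.73 and 3.91 CPM in WT and 3.05, 2.99 and 3.92 in 3etv.

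Of the ligands of vessel receptors, 8 of 10 listed were tested, 1 rose and 1 fell (25%, beside 31.3% of all genes). apela (ENSDARG00000094729), a peptide ligand of the apelin receptors, rose from 31.7 ± 3.10 to 48.8 ± 1.55 CPM (log2FC 0.62, SE 0.083, edgeR adjusted p 1.05e-04). vegfab (ENSDARG00000034700), a vascular endothelial growth factor, had 3.70, 3.08 and 3.07 CPM in WT and 1.45, 1.47 and 1.49 in 3etv (log2FC -1.15, SE 0.21, adjusted p 0.0012). The related vegfaa had 7.90, 6.02 and 6.19 CPM against 7.01, 8.09 and 7.74 and did not pass (adjusted p 0.35).

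The genes shared by blood and endothelial progenitors were compared last. lmo2 (ENSDARG00000095019), the LIM protein that bridges Tal1 and Gata factors, had 50.8, 38.7 and 37.4 CPM in WT and 55.6, 67.3 and 59.7 in 3etv. The lowest mutant embryo was above the highest WT embryo, and the log2FC was 0.53 (SE 0.12, edgeR adjusted p 0.0053), with a range from 0.44 to 0.67 over 15 alternatives, all past the threshold in use. Its partner tal1 (ENSDARG00000019930) had 53.4, 44.5 and 42.6 CPM in WT and 50.5, 56.8 and 60.8 in 3etv. WLD101 lay within the range of the mutants, and the log2FC of 0.26 (SE 0.095) did not pass (adjusted p 0.053). tal1 did pass in 5 alternatives: upper-quartile scaling (0.034), limma voom (0.049), no low-count filter (0.024), and without WLD101 (0.0046) or MUT101 (0.024).

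The other 3 shared genes had overlapping groups. gata2a (ENSDARG00000059327), a Gata factor of progenitors and endothelium, had 53.5, 50.8 and 50.6 CPM in WT and 52.4, 55.0 and 48.7 in 3etv (log2FC 0.01, SE 0.071, edgeR adjusted p 0.92). gfi1aa (ENSDARG00000020746), a zinc finger repressor of primitive red cells, had 10.1, 9.13 and 8.42 CPM in WT and 10.3, 11.2 and 8.18 in 3etv (log2FC 0.11, SE 0.14, adjusted p 0.58). gfi1aa was placed on the shared list. Among the erythroid genes it would be another that did not pass. drl (ENSDARG00000078004), the zinc finger gene draculin that marks lateral plate mesoderm, had 2.68, 2.50 and 2.35 CPM in WT and 3.11, 2.02 and 2.27 in 3etv (log2FC -0.03, SE 0.22, adjusted p 0.94). In 3etv the spread of drl was wide, with a coefficient of variation of 23.0% against 6.42% in WT. In RefSeq's gene order for the assembly GRCz12tu, drl lies beside the related genes drll.1 and drll.2, so reads may be split among these copies. The sum of drl and 3 such copies was 8.56, 7.73 and 8.90 CPM in WT and 7.82, 6.62 and 7.96 in 3etv, which overlap.

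The list of shared progenitor genes, which holds these 5 members and later blood stem cell genes, had 16 tested of 18. Of these 2 were higher and 2 lower (25%, beside 31.3% of all genes), with a median log2FC of 0.0029. runx1 (ENSDARG00000087646), needed for blood stem cells, had 2.14, 1.37 and 2.20 CPM in WT and 1.18, 0.37 and 0.50 in 3etv (log2FC -1.48, SE 0.39, edgeR adjusted p 0.011, and 0.055 without MUT102). The counts of runx1 were 48, 40 and 55 in WT and 22, 8 and 9 in 3etv. MUT102 alone fell below the cutoff of the low-count filter, so only WT met it in every embryo. myb (ENSDARG00000053666), a stem cell and proliferation factor that other tissues also express, fell from 17.9 ± 0.851 to 12.8 ± 2.72 CPM (log2FC -0.49, adjusted p 0.014). The myb call was lost without WLD102 or MUT102 (0.053 and 0.056). hhex (ENSDARG00000098231), a homeobox gene of blood and endothelial progenitors and of endoderm, had 2.32, 2.46 and 2.16 CPM in WT and 2.89, 4.97 and 3.09 in 3etv (log2FC 0.67, adjusted p 0.044). Its call was lost in 9 alternatives, up to an adjusted p of 0.27, among them DESeq2 (0.062), limma voom (0.051), thinning (0.064), the replicate block (0.063) and the fits without WLD101, WLD102, WLD103 or MUT102. The list count fell to 2 without WLD102 and to 1 without MUT102. Over all genes the calls were also fewer in these fits, 4385 of 18976 and 4247 of 19084 against 5801 of 18533.

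Ratios of 12 pairs of the 10 genes were taken within single embryos, with 0.5 counts added to each gene, to contrast the lineages without library scaling. They are compared between embryos only, since gene lengths differ, and carry no test, and pairs share genes. In 10 of 12 pairs the genotypes did not overlap, and each of these 10 holds gata1a, lmo2 or npas4l, the 3 genes that differed, so the count adds nothing to those calls. The widest shift downward was in gata1a over lmo2, at 0.214, 0.250 and 0.268 in WT and 0.116, 0.0885 and 0.133 in 3etv, a mean log2 difference of -1.13. Relative to lmo2, which was itself higher in 3etv, spi1b and kdrl were lower by mean log2 differences of -0.61 and -0.60. The ratio of these 2 to each other overlapped: spi1b over kdrl was 0.760, 0.592 and 0.704 in WT and 0.801, 0.561 and 0.690 in 3etv. npas4l over lmo2 also overlapped, at 0.378, 0.467 and 0.399 in WT and 0.425, 0.450 and 0.458 in 3etv.

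**Figure D3:**
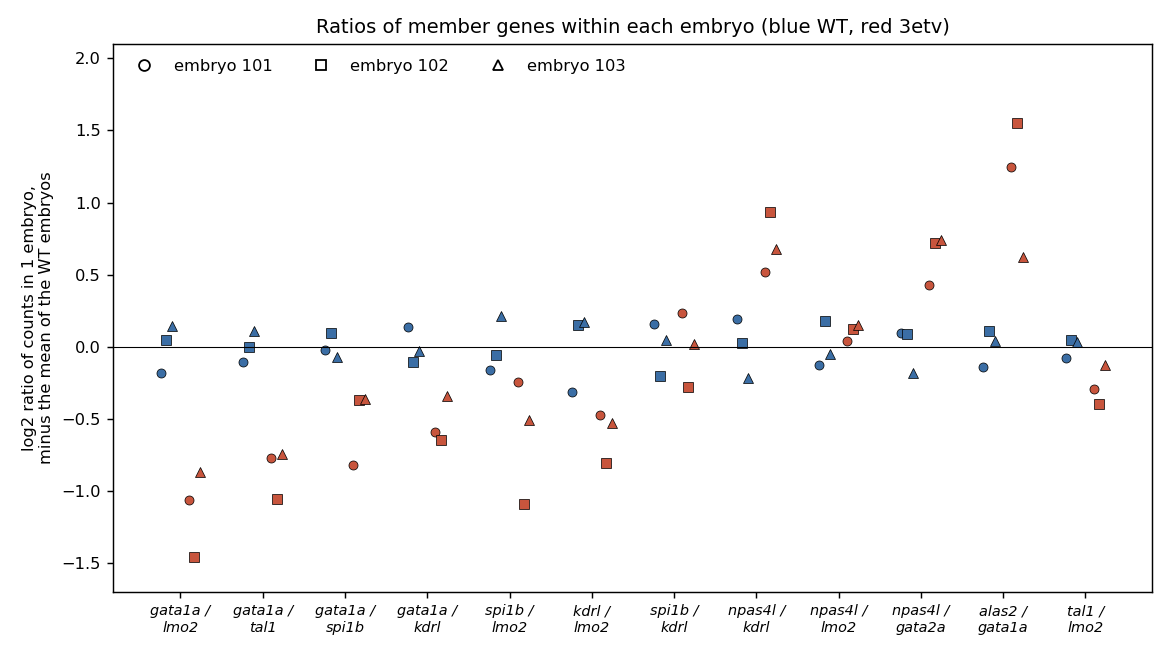
Log2 ratio of the counts of 2 genes within each embryo, minus the mean of the WT embryos, with WT in blue and 3etv in red and marker shapes for the number in the sample title. Ratios with gata1a on top lie lower in 3etv, alas2 over gata1a lies higher, and spi1b over kdrl and npas4l over lmo2 overlap.

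Other lateral plate mesoderm genes were read beside these. Of 12 tested, 4 were higher and 2 lower (50%, beside 31.3% of all genes), with a median log2FC of 0.13. Of the 2 lower, fibina passed the filter on low counts through WT alone, so no test is given for it. It had 27, 36 and 23 counts in WT and 4, 6 and 5 in 3etv. hand2 (ENSDARG00000008305), a factor of heart and lateral plate, overlapped at 18.5, 14.1 and 14.7 CPM in WT and 18.04, 14.9 and 16.7 in 3etv (edgeR adjusted p 0.69). gata6 (ENSDARG00000103589), a Gata factor of heart and endoderm, had 16.2, 10.3 and 10.9 CPM in WT and 22.4, 31.2 and 26.5 in 3etv (log2FC 1.11, SE 0.18, adjusted p 0.0012). gata5 (ENSDARG00000017821), of the same tissues, rose from 16.6 ± 1.88 to 24.4 ± 6.23 CPM (log2FC 0.57, adjusted p 0.022), a call lost without WLD102, WLD103 or MUT102 (0.061 to 0.080). prrx1a (ENSDARG00000033971), a homeobox gene of mesenchyme, fell from 18.3 ± 0.411 to 12.7 ± 2.57 CPM (log2FC -0.53, adjusted p 0.0065). The count of this list was 3 of 12 without MUT102, where 4247 of 19084 genes passed in all, against 5801 of 18533 in the main fit.

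**Figure D4:**
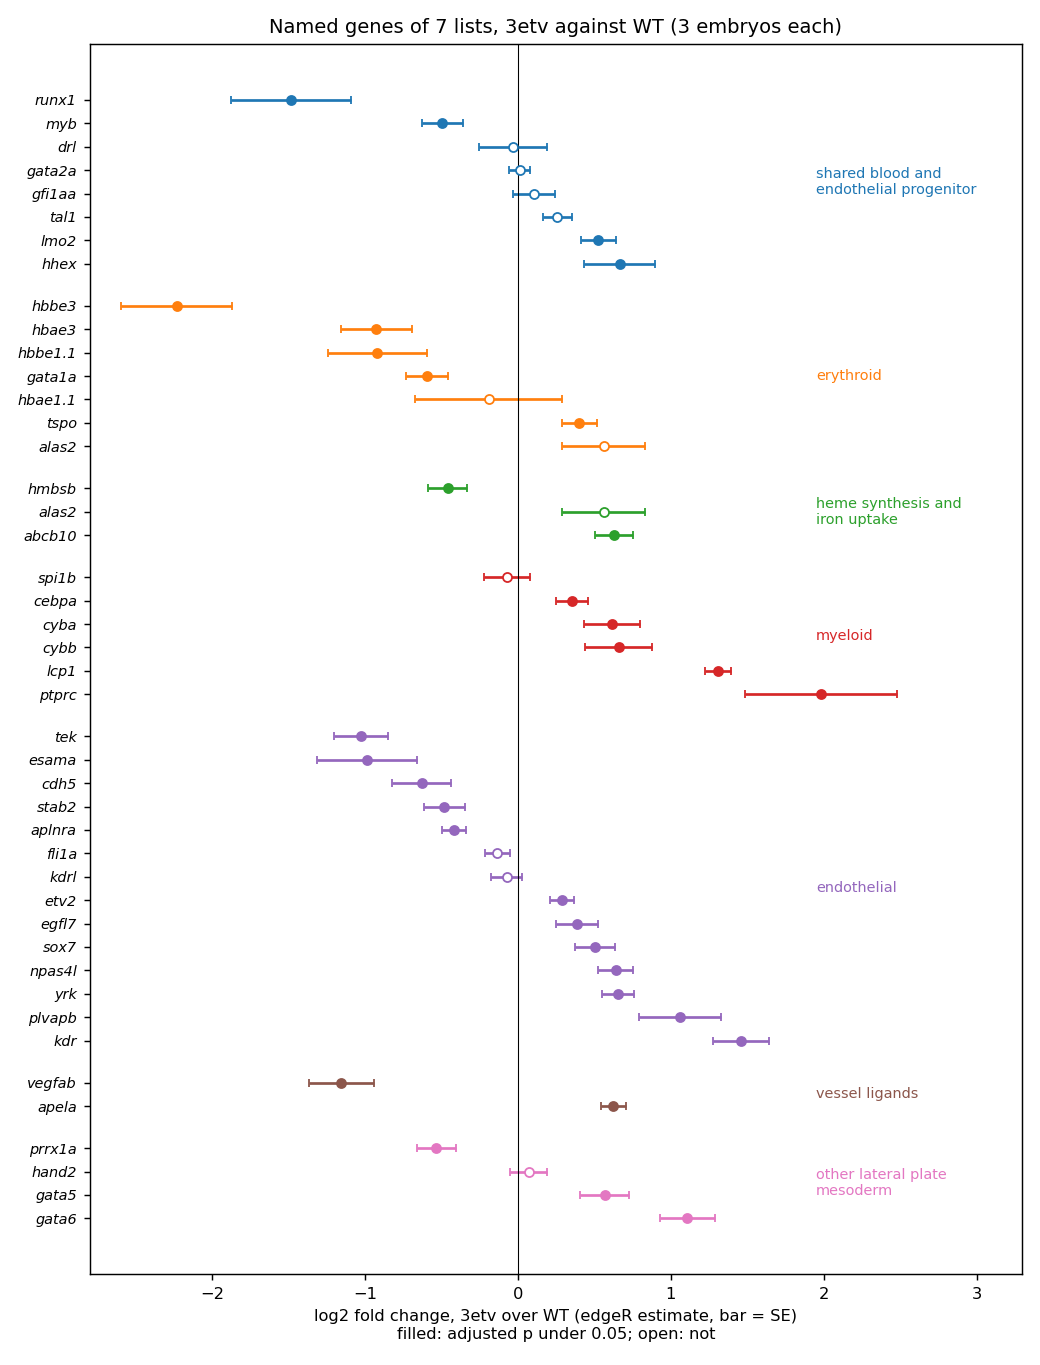
Log2FC for the named genes of 7 lists, with the SE as a bar; filled points passed an adjusted p under 0.05 and open points did not. The globins hbbe3, hbae3 and hbbe1.1 lie left of 0 beside gata1a. Of the other erythroid genes shown, tspo (0.40, passed) and alas2 (0.56, did not pass) lie right of 0. The globin hbae1.1 (-0.19) did not pass. hbae3, hbbe3 and tspo are shown because they passed. Most tested erythroid genes that did not pass, such as klf17 (0.16), ank1a (0.43), hbbe1.3 (-0.11) and cahz (-0.44), are not shown. The myeloid genes shown other than spi1b lie right of 0, and endothelial genes lie on both sides. Of the myeloid genes, cyba and cybb are shown because they passed and ptprc was picked after its values were seen. The tested myeloid genes irf8 and ncf1 (log2FC -0.49 and -0.07) are not shown. The gene hbbe1.2 is left out because its 3etv libraries held 3 counts or fewer. The gene ptprc is shown though it passed the filter on low counts through 3etv alone. For runx1 and hbbe3, also shown, only WT met that filter in every embryo.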

How the data were processed

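RNA of 6 single embryos was sequenced from poly-A, strand-specific libraries, per the labels' protocols. The authors deposited 1 table of raw counts per Ensembl gene. STAR, HTSeq and the build GRCz11 are named in the submitters' processing notes; the annotation release and strand setting are not given in the sources used here, so overlapping or antisense genes may share counts. A space stands in for a tab in the header, which was split there too, and each column name equals a sample title. The 5 summary entries were left out. Genes held between 39.7% and 41.7% of reads, and the entry for reads in no annotated feature held between 52.8% and 53.6%. Low counts were removed with filterByExpr (18533 genes left) and libraries TMM-scaled in R 4.3.3 with edgeR 4.0.16. Standard errors are the log2 fold change over the square root of F. CPM were computed from the counts with TMM scaling. With 3 counts as a floor, 0.103 to 0.166 CPM could be seen per library, for counting error only.

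Members and gene lists were chosen with earlier results of these data known. Named were all 10 members, 11 fixed genes, and up to 4 more from each of 7 lists, taken by lowest adjusted p where it passed, the average log2 CPM was 1 or more and the groups were separate. Other list genes with values (hbbe1.3, slc4a1a, sptb, ank1a, ncf1, irf8, tie1 and vegfaa among them) were chosen after their values were seen. Alternatives were RLE and upper-quartile scaling, DESeq2 1.42.0, limma 3.58.1 voom, no filter, a mean of at least 50 counts, an adjusted p under 0.01, thinning, a replicate block and leaving out each embryo. Lists of the alternatives in which a gene lost its call leave out the threshold of 0.01, and counts of such alternatives include it. Embryos of a group are separate animals.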

Additional observations from a re-analysis of the deposited data

How the results depend on the processing

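Of the 10 genes, 3 differed, and 3 or 4 did in each of the 15 alternatives. At an adjusted p under 0.01, 3460 genes differed in all against 5801, and the lists gave 1 shared progenitor gene against 4, 1 heme gene against 2, 2 myeloid against 5, 6 endothelial against 12 and 3 other lateral plate genes against 6. That last list also gave 3 with a mean of at least 50 counts, but there only 6 of its genes were tested, against 12 in the main fit. With the replicate block 4524 genes differed, 3 of the 10 members among them, and 3 myeloid genes. Deviations from the group means correlated at -0.11, -0.03 and -0.08 where embryos shared a number. With 3 embryos per group these values cannot show whether such embryos were pairs. Leaving out 1 embryo gave from 1 to 5 shared progenitor genes, from 4 to 8 erythroid genes, from 1 to 3 heme genes, from 2 to 7 myeloid, from 6 to 12 endothelial and from 3 to 6 other lateral plate genes. Over all genes these fits gave from 4247 to 5721, of 18976 to 19144 tested. The number tested also changed in the erythroid, myeloid and endothelial lists. Genes near 0 changed sign in such fits without ever passing: gata2a ranged from -0.033 to 0.059, drl from -0.22 to 0.098, spi1b from -0.19 to 0.079, hbae1.1 from -0.54 to 0.18 and hand2 from -0.0057 to 0.20 (log2 fold change). Over 44 named genes and all alternatives, 84 of 652 values lost the call and 5, all of tal1, gained it; the causes were not tested. List medians moved as well, to 0.48 for the myeloid list and 0.22 for other lateral plate genes without WLD103, to 0.24 for the endothelial list without WLD101, and to 0.13 for the 10 genes without MUT103, while that of the heme list ran from -0.041 without MUT102 to 0.063 without WLD103. The erythroid median, -0.36 in the main fit, moved to -0.43 with no filter, -0.44 without MUT102 and -0.48 without MUT103. A prior count of 1 moved no ratio by more than its SD. The alas2 values rest on 23 to 40 counts per library.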

Other observations

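Embryos of 1 genotype also differed among themselves in these 10 genes. In WT, WLD101 had the highest CPM of 8 of the 10 genes, all but kdrl and alas2, and WLD103 the lowest of 6. In 3etv, MUT102 had the highest value of 5 genes (lmo2, npas4l, gata2a, gfi1aa and alas2) and the lowest of 4 (gata1a, spi1b, drl and kdrl). This is also the embryo with the lowest globin sum, 4.001 CPM against 7.44 and 6.19 in the other mutants, and the lowest runx1, 0.37 CPM. No sample detail in the labels separates these embryos beyond their title.

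In RefSeq's order of protein-coding genes for GRCz12tu, 0 of the 10 genes lay within 50 genes of etv1, etv4, etv5a or etv5b. kdrl lies next to cdx4 in that order, and gata1a next to adnpa.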
